A study of Mus musculus with 24 samples.

Results

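The cadherin switch genes are 9 genes whose levels are followed when cells pass between an epithelial and a mesenchymal state: Cdh1, Epcam, Esrp1, Cdh2, Vim, Fn1, Zeb1, Zeb2 and Snai1. They were chosen by name, with earlier results of these data known. Every probe set that the platform annotation gives to just 1 of them was taken. This made 21 probe sets, for 9 of the 18194 genes that the array names in this way. A probe set is a group of short probes on the array that together report 1 transcript. Expression was measured on 24 Affymetrix MG 430 2.0 arrays of undifferentiated 129/Sv mouse embryonic stem (ES) cells, cultured cells of the early embryo. All values are log2 signals, so that a difference of 1 is a doubling. A value of 5 on at least 3 of the 24 arrays was required for testing.

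What separates the groups is the huntingtin gene, labelled Hdh and now named Htt. The 6 knock-out arrays have the genotype null. The 4 knock-in lines, with 3 arrays each, keep an allele of 7 CAG repeats beside an altered allele. The altered allele carries 16 repeats in Q20, 45 in Q50 (43 in its replicate 3), 85 in Q91 and 111 in Q111. The 6 control arrays have 7 repeats on both alleles. No treatment is given for any group, and all cells are labelled undifferentiated. The titles name a single line for each knock-in group, so line and repeat length cannot be told apart. The titles call the arrays biological replicates. The sources used here do not say if these were separate clones or cultures, and p-values measure only the spread between the arrays.

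In epithelia, Cdh1 (E-cadherin) joins neighbouring cells through adherens junctions, Epcam is a surface adhesion molecule, and Esrp1 is an RNA-binding protein that sets epithelial splice forms. Cells that undergo an epithelial-to-mesenchymal transition (EMT), as at gastrulation, lose E-cadherin and gain Cdh2 (N-cadherin), the intermediate filament vimentin (Vim) and the matrix protein fibronectin (Fn1), an exchange known as the cadherin switch. Zeb1, Zeb2 and Snai1 are transcription factors that bind E-box sequences in the promoters of epithelial genes and repress them. ES cells are held together by E-cadherin and form compact colonies.

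Promoter sequences are shown for Epcam, the epithelial member with an entry in the RefSeq table used (GRCm38.p6), and for Vim, a mesenchymal one, since the E-box CACCTG or its reverse complement CAGGTG is the letter pattern that the Zeb and Snail factors recognise. Both runs are the 250 bases before the annotated start, on the plus strand, at chr17:87635729-87635978 for Epcam and chr2:13574061-13574310 for Vim, and capitals mark either form of the E-box.
Epcam: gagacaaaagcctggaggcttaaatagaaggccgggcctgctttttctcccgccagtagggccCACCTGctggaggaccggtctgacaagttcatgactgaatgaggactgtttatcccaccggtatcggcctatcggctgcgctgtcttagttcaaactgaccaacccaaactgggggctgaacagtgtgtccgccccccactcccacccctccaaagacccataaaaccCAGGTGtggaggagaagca
Vim: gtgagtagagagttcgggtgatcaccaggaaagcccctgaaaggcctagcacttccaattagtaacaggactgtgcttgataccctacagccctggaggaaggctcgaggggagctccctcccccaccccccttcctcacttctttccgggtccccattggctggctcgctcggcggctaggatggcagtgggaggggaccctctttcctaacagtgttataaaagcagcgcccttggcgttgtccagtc
The Epcam run held the pattern 187 and 19 bases before the start, and the Vim run did not hold these letters. Of 32851 mouse promoter windows of 300 bases in the same table, 20.2% held the pattern on either strand and 2.88% held it 2 or more times. Snai1 had 1 match, 126 bases before its start, and the 4 windows of Zeb2 had none. A match is a description of letters and not of binding, which was not measured.

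All 10 markers of undifferentiated ES cells (Pou5f1, Nanog, Sox2 and others) reached 5 on every array of every group. The summed linear signal of these markers was 182000 to 193000 in knock-out cells. Q20 arrays had 132000 to 162000, Q50 arrays 161000 to 183000, Q91 arrays 130000 to 158000 and Q111 arrays 136000 to 173000, against 173000 to 186000 in controls. From 36.8% to 38.0% of probe sets reached 5 on each array. Htt (1425969_a_at), the targeted gene, averaged 7.21 ± 0.27 in knock-out cells and 8.01 ± 0.29 in controls (SD, n = 6 each), and 6.96 to 7.54 in the lines. It thus stayed above 5 on the arrays titled knock-out, and where its probes lie relative to the disrupted part was not checked. The description field of the labels swaps the control and knock-out arrays relative to the titles and the genotype field, which were followed here. Array medians lay above those of controls by 0.02 in the knock-out, 0.11 in Q20, 0.08 in Q50, 0.07 in Q91 and 0.12 in Q111 over the probe sets tested.

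Of the 21 probe sets, 12 from 7 genes passed the filter. The other 9 were 3 of Zeb1, all 5 of Zeb2 and the single one of Snai1, and none of these reached 5 on any array. Against controls, 3 of the 12 tested probe sets fell in knock-out cells, 8 rose in Q20, 2 rose in Q50, 7 rose and 1 fell in Q91, and 5 rose and 1 fell in Q111 (limma, adjusted p below 0.05, Benjamini-Hochberg over all 17980 probe sets). Of all probe sets tested, 14.6% were called in the knock-out (7.42% higher, 7.17% lower), 25.2% in Q20 (16.2% higher, 9% lower), 8% in Q50 (5.7% higher, 2.3% lower), 22.2% in Q91 (12.7% higher, 9.49% lower) and 25.7% in Q111 (16.2% higher, 9.49% lower). The members' shares were 25% in the knock-out, 66.7% in Q20, 16.7% in Q50, 66.7% in Q91 and 50% in Q111. These include Cdh2 1449244_at, which passed the filter through knock-in arrays alone and so had to be high there. Without it, a count added after the data were seen, 7 of 11 rose in Q20, 6 rose and 1 fell in Q91, and 4 rose and 1 fell in Q111. Ranges wholly above or below those of controls were found for 11% of all probe sets in the knock-out, 26.9% in Q20, 11.7% in Q50, 21.4% in Q91 and 27.4% in Q111. Several probe sets report the same gene and all comparisons share the 6 controls, so these counts are not independent of each other. In bulk RNA a change in the share of cells of a type and a change in RNA per cell cannot be told apart.

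**Figure D1:**
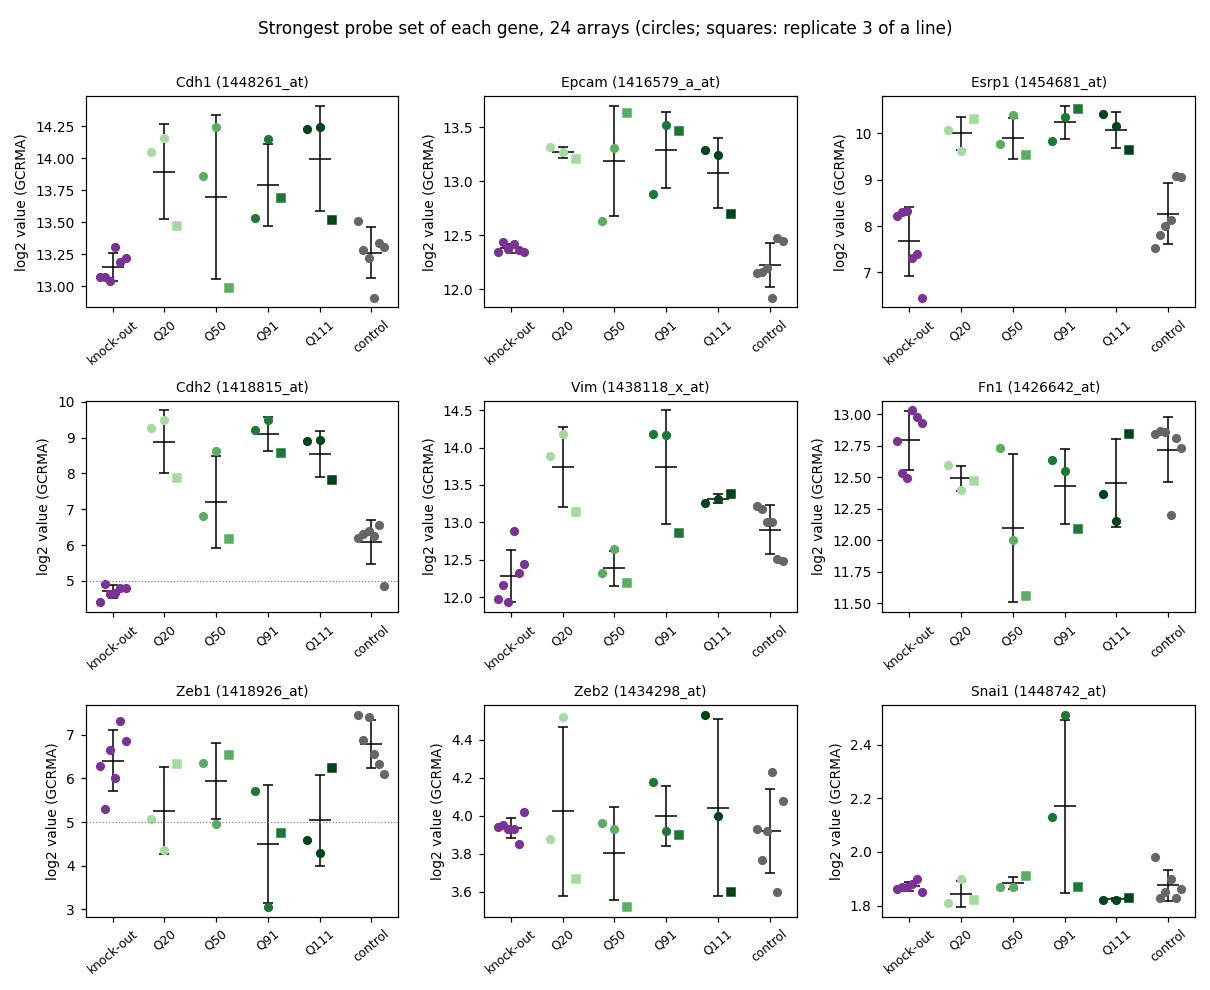
Log2 value of the strongest probe set of each of the 9 genes (y axes, each with its own range) by group (x axes), 1 point per array, with squares for replicate 3 of a knock-in line and bars for the mean ± SD; the dotted line marks 5 where it falls in range. Cdh1, Epcam, Esrp1 and Cdh2 lie mostly higher in the lines than in controls, Zeb1 lies mostly lower, and Zeb2 and Snai1 stay under 5 in all groups.

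Among the epithelial genes, Cdh1 had 1 probe set (1448261_at) and was among the strongest signals of the set, between 12.91 and 14.24 on all 24 arrays. Knock-out cells ran from 13.04 through a median of 13.13 to 13.31. The lines gave 14.05, 14.16 and 13.47 in Q20, 13.86, 14.24 and 12.99 in Q50, 13.53, 14.15 and 13.69 in Q91, and 14.23, 14.24 and 13.52 in Q111. Controls ran from 12.91 through 13.30 to 13.51. All arrays of Q91 and Q111 thus lay above all controls, but narrowly, with lowest values of 13.53 and 13.52 against a highest control of 13.51. Array medians of these lines lay above those of controls by 0.07 and 0.12. Of all probe sets tested, 21.4% in Q91 and 27.4% in Q111 had ranges that did not overlap those of controls. Q20 and Q50 each had 1 array inside the control range, replicate 3 in both cases.

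Cdh1 rose in Q20 by 0.63 ± 0.22 (SE, limma adjusted p = 0.0403) and in Q111 by 0.74 ± 0.22 (adjusted p = 0.0177). Its differences were 0.43 in Q50 (adjusted p = 0.228), 0.53 in Q91 (adjusted p = 0.0931) and -0.11 in the knock-out (adjusted p = 0.746). E-cadherin transcript was therefore not lower than in controls by this test in any group. The Q20 call rests on single arrays: it was lost without Q20 replicate 1 (adjusted p = 0.159) or 2 (0.186), without control replicate 2, 3, 4 or 6 (0.0506 to 0.075), without the filter (0.0895), with arrays centred on their medians (0.0764), with replicates 1 to 3 only (0.194) and against controls 4 to 6 only (0.0958). The Q111 call was lost without Q111 replicate 1 (adjusted p = 0.104) or 2 (0.103), with replicates 1 to 3 only (0.119) and against controls 4 to 6 only (0.0542), and Q50 passed without its replicate 3 (0.79, adjusted p = 0.0273).

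Epcam was higher in all 4 lines on its stronger probe set (1416579_a_at). It had 13.32, 13.27 and 13.21 in Q20, 12.63, 13.31 and 13.63 in Q50, 12.88, 13.52 and 13.47 in Q91, and 13.29, 13.24 and 12.70 in Q111. Knock-out cells ran from 12.34 through 12.37 to 12.44, and controls from 11.92 through 12.18 to 12.47. Each array of the 12 in the lines lay above every control, and the knock-out arrays fell within the control range. The probe set rose by 1.04 ± 0.18 in Q20 (limma adjusted p = 0.000365), 0.97 ± 0.18 in Q50 (0.00296), 1.07 ± 0.18 in Q91 (0.000269) and 0.85 ± 0.18 in Q111 (0.0016; ± is the SE), close to a doubling in each. In knock-out cells the difference was 0.15 (adjusted p = 0.54). The weaker Epcam probe set (1447899_x_at) lay between 8.25 and 9.22 on all arrays, differed from controls by 0.02 to 0.27 in the groups and was called in none of them (unadjusted p from 0.111 to 0.904). Its suffix marks a design with probes that may also match other transcripts, and over the 24 arrays its r with the stronger probe set was 0.25.

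Esrp1 (1454681_at) rose about 3-fold or more in every line. Its values were 10.07, 9.62 and 10.32 in Q20, 9.78, 10.39 and 9.53 in Q50, 9.83, 10.35 and 10.53 in Q91, and 10.41, 10.16 and 9.64 in Q111. Knock-out cells ran from 6.45 through 7.81 to 8.33, and controls from 7.53 through 8.05 to 9.08. All 12 knock-in arrays lay above all controls, and the knock-out and control ranges overlapped. The fold changes were 3.35 in Q20 (log2 1.74 ± 0.39, limma adjusted p = 0.00284), 3.12 in Q50 (1.64, adjusted p = 0.0139), 3.93 in Q91 (1.98, adjusted p = 0.00106) and 3.5 in Q111 (1.81, adjusted p = 0.00192). The Q50 call was lost without Q50 replicate 2 (1.40, adjusted p = 0.0778).

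In knock-out cells Esrp1 differed from controls by -0.59 ± 0.32 (limma adjusted p = 0.229), and the sign turned between sets of replicates. Replicates 1 to 3 gave 8.21, 8.31 and 8.33 in knock-out cells, against 7.53, 7.80 and 7.99 in controls. Replicates 4 to 6 gave 7.30, 7.40 and 6.45 in knock-out cells, against 8.12, 9.08 and 9.06 in controls. The difference was 0.51 with replicates 1 to 3 only (limma adjusted p = 0.3) and -1.70 with replicates 4 to 6 only (adjusted p = 0.0105). Set against controls 4 to 6 only, the Esrp1 rises were 1.25 in Q20 (adjusted p = 0.0615), 1.15 in Q50 (0.143), 1.49 in Q91 (0.0292) and 1.32 in Q111 (0.0463). The labels do not say whether replicates 1 to 3 and 4 to 6 were handled apart.

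Cdh2 varied most among the 9 genes on its stronger probe set (1418815_at), from 4.40 to 9.50. Knock-out cells gave 4.40 at the lowest, 4.73 at the median and 4.91 at the highest. The lines gave 9.28, 9.49 and 7.88 in Q20, 6.81, 8.63 and 6.16 in Q50, 9.20, 9.50 and 8.57 in Q91, and 8.90, 8.92 and 7.81 in Q111. Controls ran from 4.86 through 6.28 to 6.57. Every array of Q20, Q91 and Q111 lay above every control, Q50 overlapped the controls, and all knock-out arrays lay under 5, as did control replicate 6.

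Cdh2 rose in Q20 and Q111, where Cdh1 rose too. It also rose in Q91, where the Cdh1 difference of 0.53 was not called (limma adjusted p = 0.0931). The rise in Cdh2 was 6.92-fold in Q20 (log2 2.79 ± 0.45, limma adjusted p = 0.000176), 7.97-fold in Q91 (2.99 ± 0.45, adjusted p = 8.01e-05) and 5.46-fold in Q111 (2.45 ± 0.45, adjusted p = 0.000455). In Q50 the difference was 1.11 (adjusted p = 0.126), and without Q50 replicate 3 it was 1.62 (adjusted p = 0.0465). That array also had a 3'-to-5' difference of the Actb control probe sets of 1.54, against 0.75 to 1.03 on the other 23 arrays, and the part of RNA quality in its values was not tested. In knock-out cells Cdh2 fell by 1.39 (SE 0.36, adjusted p = 0.0138), a call kept when any single knock-out or control array was left out. It was -1.63 with replicates 1 to 3 only (adjusted p = 0.0994) and -1.14 with replicates 4 to 6 only (adjusted p = 0.295). Since knock-out values lie under 5, the level required for testing, the size of the fall is uncertain.

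The weaker Cdh2 probe set (1449244_at) passed the filter through the knock-in arrays alone, so its rises are given as values and not as support. It had 5.30, 5.73 and 2.55 in Q20, 1.98, 3.21 and 1.84 in Q50, 4.89, 5.43 and 2.48 in Q91, and 4.72, 3.46 and 3.91 in Q111, against 1.85 to 1.93 in knock-out cells and 1.84 to 1.95 in controls. The differences from controls were 2.62 in Q20, 0.44 in Q50, 2.36 in Q91 and 2.12 in Q111 (adjusted p = 0.00196, 0.67, 0.00445 and 0.00809). Without Q91 replicate 2 or Q111 replicate 1 the difference in that line was 1.78 (adjusted p = 0.0605 and 0.0643).

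**Figure D2:**
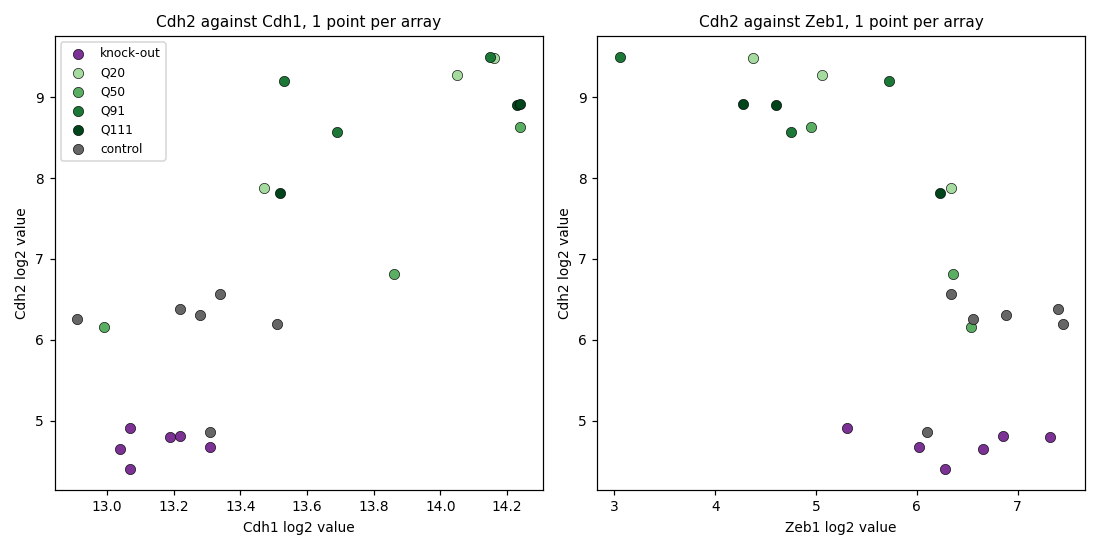
Log2 value of Cdh2 (y axes) against Cdh1 (left) and against Zeb1 (right), 1 point per array, coloured by group. Arrays with the highest Cdh2, 8.57 to 9.50, have Cdh1 of 13.53 to 14.24 and Zeb1 of 3.05 to 5.72, and the 6 knock-out arrays and control replicate 6 lie at the bottom of both panels.

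Within the knock-in lines, replicate 3 had the lowest Cdh2 of its line in 4 of 4 lines and the lowest Cdh1 in 3 of 4. The same arrays had the highest Zeb1 in 3 of 4 lines and the lowest Vim in 3 of 4. For Epcam and Fn1 they were lowest in 2 of 4 lines and highest in 1, and for Esrp1 lowest in 2 and highest in 2. These arrays also had the lowest score of their line on the first principal component of all tested probe sets, but in Q50 it was replicate 2 that lay farthest from the other two (32.33, against -2.72 for replicate 1 and -13.30 for replicate 3). The labels give no batch, and whether replicate 3 was handled apart was not tested. With replicate 3 of all 4 lines left out together, a setting added after the data were seen, Cdh1 and Cdh2 also passed in Q50 (adjusted p = 0.00618 and 0.0179), and Cdh1 in Q91 (0.0137).

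Vim had 3 strong probe sets that followed each other with r of 0.96 to 0.99 over the 24 arrays. On the strongest (1438118_x_at), knock-out cells ran from 11.93 through 12.24 to 12.88. The lines gave 13.89, 14.18 and 13.14 in Q20, 12.33, 12.64 and 12.19 in Q50, 14.18, 14.17 and 12.86 in Q91, and 13.26, 13.31 and 13.38 in Q111. Controls ran from 12.48 through 13.00 to 13.22. On this probe set 2 of the 3 arrays of Q20 and of Q91 lay above all controls, as did the 3 of Q111, and Q50 lay at the lower end of the control range or under it. On 1450641_at Q111 overlapped the controls, with a lowest value of 11.81 against a highest of 11.88 in controls.

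All 3 Vim probe sets rose in Q20 (0.75 to 0.92, limma adjusted p = 0.0214 to 0.0295) and in Q91 (0.84 to 0.97, adjusted p = 0.0122 to 0.0328). In Q111 they differed by 0.32 to 0.51 (adjusted p = 0.201 to 0.354), and in Q50 by -0.55 to -0.52 (adjusted p = 0.153 to 0.259). These calls rest on 2 arrays a line: all 3 were lost without Q20 replicate 1 or 2 (adjusted p = 0.105 to 0.178) and without Q91 replicate 1 or 2 (0.0806 to 0.211). On 1438118_x_at they were also lost in both lines without control replicate 5 or 6 (0.0548 to 0.0632), and without the filter the 3 in Q20 had adjusted p = 0.0523 to 0.0703. In knock-out cells 1450641_at fell by 0.81 (SE 0.19, adjusted p = 0.00769), with values from 10.53 to 11.13 in knock-out cells and from 11.18 to 11.88 in controls, which do not overlap. Of all probe sets tested, 11% had ranges that did not overlap in that comparison. On 1456292_a_at Vim fell by 0.76 (adjusted p = 0.0311), and on 1438118_x_at the difference was -0.61 (adjusted p = 0.0706).

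The knock-out difference in Vim also depended on the replicates used. On 1450641_at it was -1.27 with replicates 1 to 3 only (limma adjusted p = 0.0133) and -0.35 with replicates 4 to 6 only (adjusted p = 0.52). The call on 1456292_a_at was lost without control replicate 1, 2, 3 or 4 or knock-out replicate 1, 2 or 3 (adjusted p = 0.0526 to 0.0664). Without knock-out replicate 4, 1438118_x_at passed (adjusted p = 0.0399).

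Fn1 was strongly expressed in every group and called in none. Its stronger probe set (1426642_at) ran from 12.49 through 12.86 to 13.03 in knock-out cells. The lines gave 12.60, 12.40 and 12.47 in Q20, a highest of 12.73 and a lowest of 11.56 in Q50, 12.64, 12.55 and 12.09 in Q91, and 12.37, 12.15 and 12.84 in Q111. Controls ran from 12.20 through 12.83 to 12.87. The differences from controls were 0.07 in the knock-out, -0.23 in Q20, -0.62 in Q50, -0.29 in Q91 and -0.26 in Q111, with limma adjusted p of 0.0723 in Q50 and 0.362 to 0.836 elsewhere. Before adjustment limma's p for Q50 was 0.00774. The Q50 value passed after adjustment without Q50 replicate 1 (-0.94, adjusted p = 0.00755), without control replicate 4 (-0.73, adjusted p = 0.0362) and with arrays centred on their medians (-0.70, adjusted p = 0.0275). The weaker Fn1 probe set (1437218_at) differed by -0.21 to 0.00 in the 5 groups (unadjusted p from 0.553 to 0.999), and a rise of fibronectin was not detected beside that of Cdh2.

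Zeb1, the one transcription factor of the set above 5, was lower in Q91 and Q111 than in controls. Its probe set 1418926_at ran from 5.31 through 6.47 to 7.32 in knock-out cells. The lines gave 5.06, 4.37 and 6.34 in Q20, 6.36, 4.95 and 6.54 in Q50, 5.72, 3.05 and 4.75 in Q91, and 4.60, 4.28 and 6.23 in Q111. Controls ran from 6.10 through 6.72 to 7.45. All Q91 arrays lay below all controls, and in each of the other lines at least 1 array fell within the control range.

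Zeb1 fell in Q91 by 2.28 (SE 0.57, limma adjusted p = 0.00653) and in Q111 by 1.75 (SE 0.57, adjusted p = 0.0276). Its differences were -1.53 in Q20 (adjusted p = 0.0535), -0.84 in Q50 (0.382) and -0.38 in the knock-out (0.65). Single arrays decide these calls. The Q91 call was lost without Q91 replicate 2 (-1.55, adjusted p = 0.0907). The Q111 call was lost without Q111 replicate 1 (adjusted p = 0.123) or 2 (0.154) and without control replicate 1 (0.0538) or 3 (0.0542), and also without the filter (0.0679) and against controls 4 to 6 only (0.218). Against controls 4 to 6 the Q91 difference was -1.83 (adjusted p = 0.0866). The Q20 difference passed without Q20 replicate 3 (-2.07, adjusted p = 0.0226), without control replicate 6 (0.0449), after quantile normalization (0.0307) and after median centring (0.0319). Several knock-in arrays lie under 5, so these sizes are uncertain.

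The remaining 3 Zeb1 probe sets lay between 1.96 and 3.47 on all arrays. Zeb2, the second Zeb factor, reached 3.52 to 4.53 on its strongest probe set (1434298_at), and its other 4 lay between 2.34 and 3.59. Snai1, the Snail factor that acts early in EMT, lay between 1.81 and 2.51 (1448742_at). No group had Zeb2 or Snai1 at the level required for testing, so a change in them was not detectable here, and a low array signal does not show that a gene is silent.

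**Figure D3:**
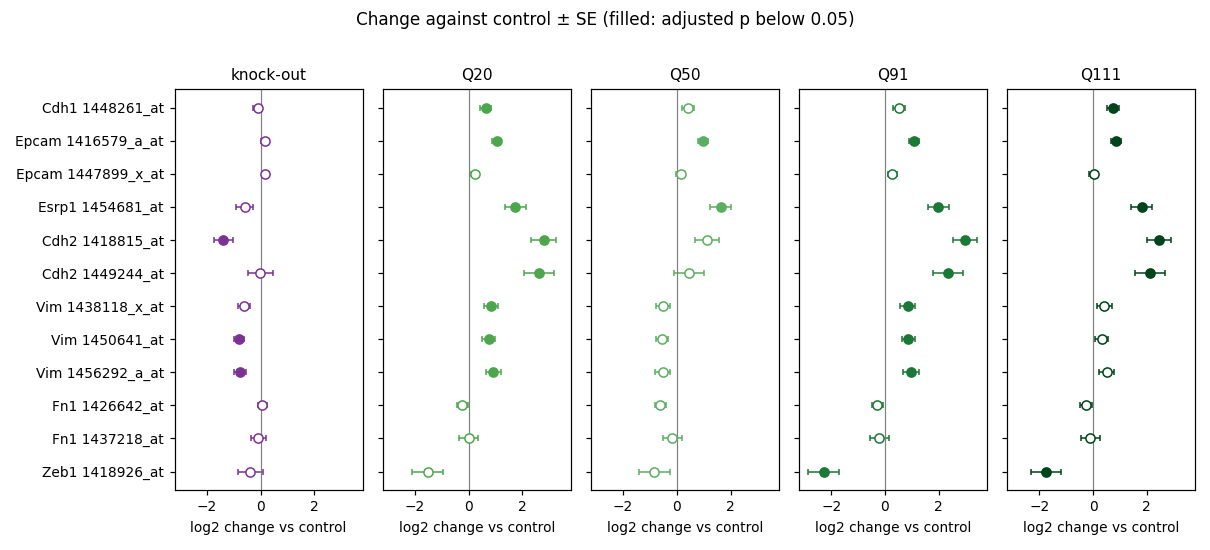
Log2 change against control (x axes) of the 12 tested probe sets (rows) in the knock-out and the 4 lines (panels), with bars for the SE of the limma fit and filled points for adjusted p below 0.05. Cdh2 shows the largest rises, 2.45 to 2.99 on 1418815_at in Q20, Q91 and Q111, and Zeb1 the largest fall, -2.28 in Q91.

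The order of the lines did not follow repeat length. Cdh2 averaged 8.88 ± 0.87 in Q20, 7.20 ± 1.28 in Q50, 9.09 ± 0.47 in Q91 and 8.54 ± 0.63 in Q111 (SD, n = 3 each), so the line with the shortest tract lay beside those with the longest. The slope of Cdh2 on repeat number was 0.42 ± 0.79 per 100 repeats (SE, limma adjusted p = 0.987), and that of Zeb1 was -0.75 ± 0.77 (adjusted p = 0.985). In limma's slope test 0 of the 12 member probe sets passed, also 0 at an unadjusted p below 0.05, against 0.0445% of all probe sets called. The limma F-test for any difference among the lines called 0 of 12, against 0.167% of all. At an unadjusted p below 0.05 this limma test had 4, which were the 3 Vim probe sets (adjusted p = 0.151 to 0.197) and Cdh2 1418815_at (adjusted p = 0.336). Without replicate 3 of the lines, Vim 1450641_at and 1456292_a_at passed the F-test (adjusted p = 0.0461 for both).

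Wider gene lists, also chosen with earlier results of these data known, placed the members among genes of like function, with 1 probe set per gene. The tested genes include Cdh1, Epcam and Esrp1 in the epithelial list, Cdh2, Vim and Fn1 in the mesenchymal list, and Zeb1 among EMT factors. The counts of these lists thus partly repeat the member results. The epithelial adhesion and polarity list had 38 of 45 genes tested. Of these, 3 rose in the knock-out, 22 rose and 1 fell in Q20, 10 rose in Q50, 23 rose and 1 fell in Q91, and 24 rose and 1 fell in Q111. Without Ocln, Patj, Marveld2, Marveld3 and Dsc2, which passed the filter through knock-in arrays alone, 19 of 33 rose in Q20, 10 in Q50, 20 in Q91 and 19 in Q111. The median change of the 38 was 0.05 in the knock-out, 0.93 in Q20, 0.53 in Q50, 1.01 in Q91 and 1.03 in Q111. These medians include Ocln, Patj, Marveld2, Marveld3 and Dsc2, which had to be high in knock-in arrays. Over all 9511 genes tested the medians were -0.02 to 0.03. Of all these genes 16.3%, 26.7%, 7.51%, 24.6% and 27.5% were called in the same order of groups. The keratin Krt18, a filament of simple epithelia, rose by 4.24 in Q20, 2.48 in Q50, 4.86 in Q91 and 4.79 in Q111 (SE 0.59, limma adjusted p = 9.28e-06 to 0.0141). The tight junction gene Cldn6 rose by 3.98 in Q20, 3.73 in Q50, 4.72 in Q91 and 4.46 in Q111 (SE 0.79, adjusted p = 0.000252 to 0.00687), and Cldn7 by 2.96 in Q20, 2.95 in Q91 and 3.67 in Q111 (adjusted p = 3.2e-05 to 0.000285). The genes that fell, named after their values were seen, were Spint1 in Q20 (-0.48, adjusted p = 0.0191) and Grhl3 in Q91 (-1.05, adjusted p = 0.0063) and Q111 (-1.11, adjusted p = 0.00361). In the knock-out Perp rose by 1.78 (adjusted p = 0.013), Grhl3 by 0.74 (0.0231) and St14 by 0.71 (0.0492). Perp rose in Q20, Q91 and Q111 too, by 2.04, 2.85 and 1.89 (adjusted p = 0.0121, 0.00113 and 0.0178). So did St14, by 1.02, 1.46 and 1.22 (adjusted p = 0.0142, 0.00121 and 0.00419). In Q50 the differences were 1.70 for Perp (adjusted p = 0.0677) and 0.70 for St14 (0.141).

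The mesenchymal cytoskeleton, matrix and surface list had 28 of 43 genes tested. Of these, 8 passed the filter through knock-in arrays alone, so its counts and medians in the lines are descriptions. In the knock-out 2 rose and 3 fell. 22 rose in Q20, 7 in Q50, 21 in Q91 and 21 in Q111, and none fell in the lines. The called shares were 17.9% in the knock-out, 78.6% in Q20, 25% in Q50, 75% in Q91 and 75% in Q111. Of all genes, 16.3%, 26.7%, 7.51%, 24.6% and 27.5% were called in the same order of groups, so the knock-out share lay near that of all genes. Median changes were -0.10 in the knock-out, 1.73 in Q20, 0.37 in Q50, 1.88 in Q91 and 2.17 in Q111. Without those 8, 15 of 20 rose in Q20, 5 in Q50, 14 in Q91 and 13 in Q111. With no filter, over 40 genes, 19 rose in each of Q20, Q91 and Q111, and the medians were 0.96, 0.92 and 0.79. The share of all genes called with no filter is not given here. The connective tissue growth factor gene Ccn2 averaged 8.16 in knock-out cells, 11.98 in Q20, 10.82 in Q50, 11.84 in Q91, 11.83 in Q111 and 7.76 in controls, with rises of 3.06 to 4.23 in the lines (SE 0.35, limma adjusted p = 2.14e-07 to 0.000136). Tagln, an actin-binding protein of smooth muscle, rose by 6.55 in Q20, 5.19 in Q50, 7.87 in Q91 and 6.92 in Q111, but its control mean of 4.69 lies under 5, so these sizes are uncertain. In the knock-out Sparc, a matrix glycoprotein, fell by 1.20 (SE 0.19, adjusted p = 0.000425) and Thy1, a surface glycoprotein of fibroblasts, by 2.66 (adjusted p = 0.00154), the size being uncertain since Thy1 lay under 5 on all knock-out arrays, while Mmp14, a membrane protease, rose by 0.95 (adjusted p = 0.0148).

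Of the 15 transcription factors listed for EMT, 4 were tested (Zeb1, Tcf3, Tcf4 and Snai3), and Zeb1 in Q91 and Q111 was the only call among them. That is 25% in each of these lines, near the 24.6% and 27.5% of all genes called there. Gastrulation mesoderm genes were mostly under the filter, with 2 of 16 tested. Of these Eomes, a T-box factor, rose by 1.06 in Q20 (limma adjusted p = 0.0155), 1.14 in Q91 (0.0111) and 1.62 in Q111 (0.000662). The other, Wnt3, was called in no group (adjusted p = 0.179 to 0.992). With 2 genes the called share of 50% in Q20, Q91 and Q111 says little beside the 26.7%, 24.6% and 27.5% of all genes.

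Catenins tie cadherins to actin. Of 16 tested catenins and cadherin partners, 4 rose in the knock-out, 4 rose and 1 fell in Q20, 2 rose and 1 fell in Q50, 3 rose in Q91, and 4 rose and 1 fell in Q111, with medians of 0.02 to 0.18. The called shares were 25% in the knock-out, 31.2% in Q20, 18.8% in Q50, 18.8% in Q91 and 31.2% in Q111, beside 16.3%, 26.7%, 7.51%, 24.6% and 27.5% of all genes. The junction receptor Nectin3 rose by 1.10 in Q20, 1.17 in Q50, 0.82 in Q91 and 0.90 in Q111 (SE 0.17, limma adjusted p = 0.000129 to 0.00169). Ctnnb1 (beta-catenin), which binds the cadherin tail, rose by 0.20 in the knock-out (adjusted p = 0.0485) and differed by -0.14 to 0.02 in the lines. Ctnna1 (alpha-catenin) rose by 0.34 in the knock-out (adjusted p = 0.0461), as did the actin linker Vcl by 0.70 (0.0164) and Afdn by 0.68 (0.034). Vcl rose in Q20, Q91 and Q111 too, by 0.91, 1.34 and 1.17 (adjusted p = 0.007, 0.000348 and 0.000958). In Q50 it differed by 0.34 (adjusted p = 0.377). Ctnna1 and Afdn were called in no line.

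Of 15 tested fibronectin receptors and matrix integrins, 3 rose and 1 fell in the knock-out, 5 rose and 3 fell in Q20, 1 rose in Q50, 8 rose and 1 fell in Q91, and 4 rose and 2 fell in Q111. The called shares were 26.7% in the knock-out, 53.3% in Q20, 6.67% in Q50, 60% in Q91 and 40% in Q111, beside the same shares of all genes as above. Parva, among the rises in Q20, Q91 and Q111, passed the filter through knock-in arrays alone and so had to be high there. Without it the called shares were 50% in Q20, 57.1% in Q91 and 35.7% in Q111. Itga3, an integrin chain that binds laminins, rose by 1.13 in Q20, 1.83 in Q91 and 1.61 in Q111 (limma adjusted p = 0.0225, 0.000815 and 0.00204) and fell by 1.02 in the knock-out (adjusted p = 0.0202). Itgav, a fibronectin and vitronectin receptor chain, rose by 1.16 in the knock-out (adjusted p = 0.00673), 0.90 in Q20 (0.0498), 1.44 in Q91 (0.00356) and 1.28 in Q111 (0.00713).

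Of 17 tested genes of the TGF-beta family and its regulators, which include known inducers of EMT, 1 rose in the knock-out, 4 rose and 4 fell in Q20, 2 rose in Q50, 5 rose and 2 fell in Q91, and 4 rose and 3 fell in Q111. The called shares were 5.88% in the knock-out, 47.1% in Q20, 11.8% in Q50, 41.2% in Q91 and 41.2% in Q111, beside 16.3%, 26.7%, 7.51%, 24.6% and 27.5% of all genes. Tgfb2, among the rises in Q20, Q91 and Q111, passed the filter through knock-in arrays alone and so had to be high there. Without it the called shares were 43.8% in Q20, 37.5% in Q91 and 37.5% in Q111. Inhbb, an activin subunit, fell most: it averaged 11.71 in knock-out cells, 5.41 in Q20, 9.31 in Q50, 7.59 in Q91, 7.04 in Q111 and 11.10 in controls. Its change was -5.69 in Q20, -3.51 in Q91 and -4.06 in Q111 (SE 0.62, limma adjusted p = 7.67e-06, 0.000421 and 0.000102). Skil, a repressor of SMAD signalling, rose in all 4 lines by 0.83 to 1.13 (SE 0.16, adjusted p = 3.69e-05 to 0.00337).

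**Figure D4:**
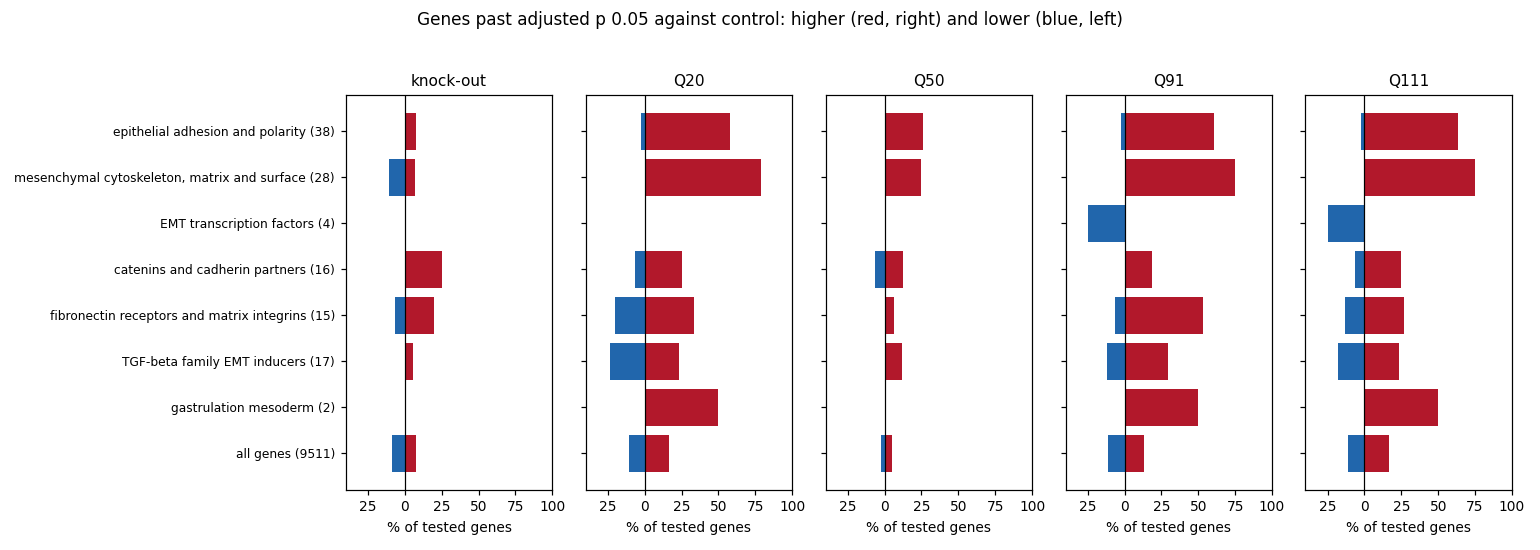
Share of tested genes (x axes, %) past adjusted p 0.05 against control in 7 gene lists and among all 9511 genes (rows, with the number tested), higher to the right in red and lower to the left in blue, in the knock-out and the 4 lines (panels). The epithelial and mesenchymal lists show 22 rises each in Q20, while the knock-out has 3 and 2. These counts include genes that passed the filter through knock-in arrays alone and so had to be high there. Without them 19 of 33 and 15 of 20 rose in Q20, and 3 of 33 and 2 of 20 in the knock-out.

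Markers of other cell types were compared beside these lists. Of 14 fibroblast feeder markers, 10 stayed under 5 on all arrays, among them Col3a1, Dcn, Lum, Pdgfra, Twist1 and Postn. Col1a1, Col1a2, Thy1 and Pdgfrb stand both in this list and among the tested genes of the mesenchymal one. The 14 markers' summed linear signal was 114 to 143 in knock-out cells. Q20 arrays had 205 to 658, Q50 arrays 124 to 139, Q91 arrays 171 to 576 and Q111 arrays 376 to 688, against 139 to 247 in controls. The 6 primed epiblast markers, which include Krt18 of the epithelial list, summed to 1640 to 2960 in knock-out cells. Their sums were 16400 to 21600 in Q20 arrays, 8110 to 15600 in Q50 arrays, 18900 to 34100 in Q91 arrays and 20100 to 22500 in Q111 arrays, against 4230 to 6020 in controls. Among these markers Fgf5 stayed under 5 on all knock-out, Q20, Q50 and control arrays, so the sums do not describe every marker. The 8 primitive endoderm markers, which include Sparc of the mesenchymal list, summed to 1430 to 2330 in knock-out cells. Their sums were 6970 to 10700 in Q20 arrays, 4360 to 5390 in Q50 arrays, 4710 to 12900 in Q91 arrays and 7690 to 8020 in Q111 arrays, against 3240 to 4970 in controls, with Gata4, Gata6, Sox17 and Sox7 under 5 everywhere. Of the mesoderm markers Mixl1, Mesp1, Gsc, Foxc2, Kdr and Tbx6 stayed under 5 on all arrays. The 7 mesoderm markers on the array summed to 70.2 to 97.7 in knock-out cells. Their sums were 74.4 to 157 in Q20 arrays, 71.1 to 103 in Q50 arrays, 92.3 to 223 in Q91 arrays and 125 to 221 in Q111 arrays, against 66.8 to 79.1 in controls. The 5 neural progenitor markers summed to 112 to 243 in knock-out cells. Their sums were 87.3 to 283 in Q20 arrays, 86 to 213 in Q50 arrays, 157 to 319 in Q91 arrays and 132 to 279 in Q111 arrays, against 91.4 to 180 in controls. Of these 5, Sox1, Pax6, Hes5 and Zic1 stayed under 5 on all Q91 and Q111 arrays, and Nes reached 5 there. The part of any of these cell types in the members' changes was not tested.

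The genes whose pattern over the 24 arrays was most like that of a member were named by Pearson r, as a description, since arrays of a group share their genotype. For Cdh1 these were Tpm4 (0.926), Tuba1a (0.922) and Stag2 (0.915), and for Epcam Stx3 (0.958), Rhbdf1 (0.946) and Prss8 (0.940). For Esrp1 they were Pi4k2b (0.957), Klhl13 (0.955) and Car4 (0.943), and for Cdh2 Sox11 (0.968), Gbp2 (0.964) and Dock11 (0.963). Vim lay closest to Axin2 (0.901), Hmgn3 (0.875) and Lasp1 (0.870), Fn1 to Tmem70 (0.890), Cnppd1 (0.882) and Mettl21a (0.865), and Zeb1 to Rabif (0.914), Mrps14 (0.905) and Elp3 (0.905). No gene appeared for more than 1 member.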

How the data were processed

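Total RNA of 24 ES cell samples was hybridised to Affymetrix MG 430 2.0 arrays, 1 per sample. The deposited values are log2 signals that the authors made with GCRMA, per the submitters' processing notes, which adjusts background, normalizes arrays and summarises probes. No version is named there. That the scale is log2 follows from the range of the values.

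Groups followed titles and genotype labels. Genes were named from the platform annotation: 34945 of 45101 probe sets had 1 gene, 932 several and 9160 none. 64 AFFX controls were dropped, and the 17980 probe sets that reached 5 on 3 or more arrays were tested. All 24 arrays entered 1 limma fit (R 4.3.3, limma 3.58.1; 18 residual degrees of freedom) with a mean per group and two-sided moderated tests. The slope on the longer CAG tract and the F-test used the 12 knock-in arrays. P-values were adjusted by Benjamini-Hochberg over these 17980, with a threshold of 0.05. For gene lists the probe set with the highest mean stood for a gene. The fit was tested on simulated data. Precision is limited by the few arrays per group.

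The members, lists and markers were chosen with earlier results of these data known. Named genes were all member probe sets, up to 4 genes per list and comparison by smallest p, the 3 genes most like each member, and Htt. Also named were cell type markers, the tested EMT factors and mesoderm genes, genes that passed the filter through knock-in arrays alone, and the epithelial genes that fell. A gene so named may be given in the other groups too. Alternatives were quantile normalization, median centring, no filter, a stricter filter, a variance trend, the replicate number as a block, the 2 groups alone, sets of replicates, and each array left out. Replicate numbers were not used to pair arrays. Sequence of Cdh2 and Zeb1 was not used here, and Cdh1, Esrp1 and Fn1 had no entry.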

Additional observations from a re-analysis of the deposited data

Results flagged for a closer look

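2 values lay far from the other arrays of their group by Dixon's test, out of 24 groups of 6 arrays examined, where chance flags about 1 in 20 groups. Control replicate 6 had 4.86 for Cdh2 (1418815_at), while the other 5 controls had 6.19 to 6.57, and the gap was 0.779 of the group's range. It lies within the range of the knock-out arrays, 4.40 to 4.91. Control replicate 4 had 12.20 for Fn1 (1426642_at), against 12.73 to 12.87 in the other 5 controls, and the gap was 0.796 of the range. Without that array the Fn1 difference in Q50 was -0.73 (limma adjusted p = 0.0362).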

How the results depend on the processing

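All 1625 single values recomputed under another setting kept their direction where called: 1531 stayed on their side of the threshold, 72 lost and 22 gained a call, and 0 reversed. The counts of called member probe sets, against 3 in the knock-out, 8 in Q20, 2 in Q50, 8 in Q91, 6 in Q111, 0 for the slope and 0 for the F-test, moved by more than 1.5 times in these cases. Without the filter 4 passed in Q20. With replicates 1 to 3 only, 4 passed in Q20 and 4 in Q91. With replicates 4 to 6 of the controls and knock-out only, 1 passed in the knock-out and 1 in Q50. With replicate 3 of all 4 lines left out together, 4 passed in Q50 and 2 in the F-test. With the replicate number as a block, 1 passed in Q50 (Esrp1 was lost, adjusted p = 0.0747), and the counts were 3 in the knock-out, 8 in Q20, 8 in Q91, 6 in Q111, 0 for the slope and 0 for the F-test. The numbers were not taken to pair arrays: between each group and the controls the deviations of same-numbered arrays did not correlate above 0.1 in every pair. Between lines they did in Q20 with Q111 (0.39 to 0.46) and in Q50 with Q91 (0.20 to 0.41), but not in the other 4 pairs of lines. With each array left out in turn the counts ran from 2 to 4 in the knock-out, 4 to 9 in Q20 (lowest without Q20 replicate 1 or 2), 1 to 4 in Q50 (lowest without Q50 replicate 2), 3 to 8 in Q91 (lowest without Q91 replicate 2) and 3 to 6 in Q111 (lowest without Q111 replicate 1), and stayed 0 for the slope and the F-test. Cdh2 1418815_at in Q20, Q91 and Q111, Epcam 1416579_a_at in all lines, and Esrp1 in Q20, Q91 and Q111 kept their calls whichever single array was left out. Against controls 4 to 6 only, Esrp1 in Q20 lost its call, as given above.

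Counts over the gene lists moved by more than 1.5 times as follows. Without the filter, the epithelial list had 1 call in the knock-out (3 with it), the mesenchymal list 4 in Q50 (7), the catenin list 2 in the knock-out (4), and the integrin list 2 in Q20 (8) and 3 in Q111 (6). EMT factors then had 2 in Q91 (1) and 0 in Q111 (1; Zeb1), and mesoderm 2 in Q20 (1), 1 in Q50 (0), 2 in Q91 (1) and 2 in Q111 (1). With the mean over a gene's probe sets, the epithelial list had 5 and the TGF-beta list 4 in the knock-out (3 and 1), EMT factors 1 in Q20 (0) and the catenin list 6 in Q91 (3). Quantile normalization and median centring, both added later for the lists, each gave 1 EMT factor in the knock-out and 1 in Q20 (0), 2 in Q91 (1), 5 integrins in Q20 (8) and 5 catenins in Q50 (3), and centring 2 catenins in the knock-out (4). Without replicate 3 of the lines, EMT factors had 1 in Q20 (0), mesoderm 2 in Q20 and 2 in Q91 (1), integrins 5 in Q50 (1) and the mesenchymal list 2 in the F-test (0). The cause was not tested. Levels under 5 carry little signal, which limits Zeb2, Snai1, Cdh2 in the knock-out and Zeb1 in the lines.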
